A study of Mus musculus with 32 samples.

Results

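Mature oligodendrocytes (MOLs) of the mouse median eminence (ME) that carried no Klk6 and almost no Ctps or Shisa8 transcript were described from single-cell RNA counts. The ME is the part of the hypothalamic floor where hypothalamic axons meet fenestrated capillaries. Cells were selected on their counts of 6 genes. A cell was taken when its unique molecular identifiers (UMIs, each standing for 1 captured transcript) summed to at least 20 over Mal, Ermn and Opalin, when Klk6 was at 0, and when Ctps and Shisa8 together gave 0 or 1 UMI. This choice took 488 of 5982 cells, which was 8.16% of all cells (95% exact Clopper-Pearson interval 7.48 to 8.88%). It was 74.6% (71.1 to 77.9%) of the 654 cells with at least 20 UMIs of the 3 marker genes. The values of these 6 genes, which chose the cells, are a description throughout.

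The cells came from C57B/L6 mice aged 40 to 47 days, of which 5 were fasted overnight (16 h) and 5 were refed normal chow for 1 h after the same fast. The MEs were dissociated with papain in separate tubes. The cells of each pool of 5 animals went into 2 libraries of a 3′ droplet kit. One matrix holds the cells of the 4 libraries, with a barcode number (1 to 4) for each, and no label ties a number to a library or to a feeding state. It was therefore read as a single pooled sample, no feeding state was given to any cell, and no test between groups was run. Values of the 4 barcode numbers are given side by side. All intervals cover counting error only.

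Oligodendrocytes wrap axons in myelin, a stack of membrane rich in cholesterol and galactolipids that is held together by a small set of proteins. They arise from oligodendrocyte precursor cells (OPCs) through a short differentiating stage (diffOPC), and mature cells go on changing their transcripts after myelin genes are on. Of the genes that the rule keeps out, Klk6 encodes a secreted serine protease, Ctps a CTP synthase and Shisa8 an auxiliary protein of AMPA receptors.

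The chosen cells fitted the markers of mature oligodendrocytes. In a clustering of all cells, 484 of the 488 lay in the 3 clusters named mature oligodendrocyte-like, 431 of them in 1 cluster. The other 4 were 2 cells of the diffOPC-like cluster and 2 of the mural-like cluster. Mal, Ermn and Opalin, which chose the cells, were also among the markers that named the mature clusters. This placement was therefore largely set in advance. Mog and Mobp, given next, also named those clusters but were not part of the rule. Mog, a myelin surface protein, and Mobp, a protein of the compact myelin, were each detected in 100% of the chosen cells. In microglia, which should lack both, Mog was found in 4.95% of cells and Mobp in 16.6%. The chosen cells had a median of 5794 UMIs, against 3086.5 in the 404 microglia-like cells.

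The number of chosen cells was 130, 93, 140 and 125 in barcode numbers 1 to 4. This was 7.92% (6.66 to 9.33%), 6.23% (5.06 to 7.58%), 10.3% (8.74 to 12%) and 8.4% (7.04 to 9.93%) of the cells of each number. Number 3 lay above number 2 beyond counting error. As a share of the mature oligodendrocytes, the same cells were 76.9%, 72.7%, 77.8% and 70.6%, and those intervals all overlapped. There were 21 barcodes shared between numbers, 4 of them held by a chosen cell. Scrublet called 9 of the chosen cells doublets, out of 50 calls in all.

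The marker threshold lay in a sparse range. Under the other 2 conditions of the rule, 1 cell had 10 to 14 UMIs of the marker genes and 5 had 15 to 19, just outside it. Just inside, 11 cells had 20 to 24 UMIs and 24 had 25 to 29. The 5 cells below the threshold gave 1470 CPM (UMIs of a gene per 1000000 UMIs of all genes, both summed over the cells of a group) for Mog, and the 11 above it gave 1813 CPM. At the other edge, 363 chosen cells had no Ctps or Shisa8 UMI and 125 had 1.

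The chosen cells were set first against the earlier steps of the lineage. Compared with the 304 OPC-like and 135 diffOPC-like cells, myelin protein and lipid genes were far higher in the chosen cells and precursor genes were nearly absent. Mog was at 2006 CPM in the chosen cells, 200 in diffOPC-like cells and 22 in OPC-like cells. Cnp, which keeps the inner myelin layers open, was already at 6848 CPM in diffOPC-like cells and at 7557 (7457 to 7658) in the chosen cells. The log2 ratio of Cnp to diffOPC-like cells was 0.14.

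A gene was counted as higher or lower when the log2 ratio of CPM, with 10 CPM added to both, was at least 1 in size. Of 7886 genes with at least 50 UMIs over both groups, 8.09% were higher in the chosen cells than in OPC-like cells and 24.6% were lower. Against diffOPC-like cells, 8.14% of 7270 genes were higher and 15.8% were lower. The median gene was shifted by -0.51 on the log2 scale against OPC-like cells and by -0.33 against diffOPC-like cells. Of 12 myelin protein genes, 9 were higher than in OPC-like cells and 7 higher than in diffOPC-like cells. Of 12 genes of myelin lipid synthesis, 10 and 6 were higher. Cholesterol synthesis differed from this, with 4 of 20 measured genes higher than in OPC-like cells, while against diffOPC-like cells 1 of 21 was higher and 4 were lower.

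Genes within the myelin set differed in their ratio to diffOPC-like cells. Mag, which faces the axon, was 1.62-fold (95% exact interval of the ratio 1.54 to 1.69) above diffOPC-like cells. Mog was 10.0-fold (8.83 to 11.4) above them, and Mobp 8.85-fold (8.10 to 9.67). Aspa, which cleaves N-acetylaspartate to supply acetate, was 190-fold (100 to 416) above them, at 1380 CPM against 7.26. Ptgds, which makes prostaglandin D2, was at 30266 CPM in the chosen cells against 442 in diffOPC-like cells. Il33, a nuclear cytokine, was at 598 CPM (570 to 627) against 3.23.

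Genes of the differentiating stage were low in the chosen cells. All 10 measured genes of the newly formed stage were lower than in diffOPC-like cells. Bmp4, Fyn and Enpp6 were among the markers that named that cluster, and Pdgfra and Cspg5 among those that named the OPC-like cluster. The direction of such genes was largely set by the naming, so their values are a description. Bmp4, a secreted signal, was at 3.79 CPM against 1205, a ratio of 318 (177 to 639). Fyn, a kinase of early process growth, was at 44.8 CPM against 3010. Enpp6, a phosphodiesterase of newly formed cells, was at 62.7 CPM against 1064. All 10 OPC genes were lower than in OPC-like cells, with Pdgfra at 1.72 CPM against 893 and Cspg5 at 24.8 against 3290. Sirt2, a tubulin deacetylase of myelin, was 6.17-fold (5.93 to 6.43) lower than in diffOPC-like cells, though it was 2.36-fold above OPC-like cells. Cd9, a tetraspanin, was at 1339 CPM against 7796 in diffOPC-like cells.

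Lineage transcription factors were retained unevenly. Olig1 was at 1196 CPM in the chosen cells, 1146 in diffOPC-like cells and 3278 in OPC-like cells. The ratio to diffOPC-like cells was 1.04 (0.981 to 1.11), an interval that holds 1. Nkx6-2, a homeobox factor of myelin assembly, was 4.61-fold (3.94 to 5.43) higher than in diffOPC-like cells. Myrf, the factor that switches on myelin genes, was at 142 CPM in the chosen cells and 137 in diffOPC-like cells. Olig2 was at 136 CPM against 476, and Sox10 at 170 against 394. Cytoskeleton genes of the mature cell, such as Stmn1, Tppp3 and Anln, were higher than in diffOPC-like cells in 12 of 16 cases, beside 8.14% of all genes.

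**Figure D1:**
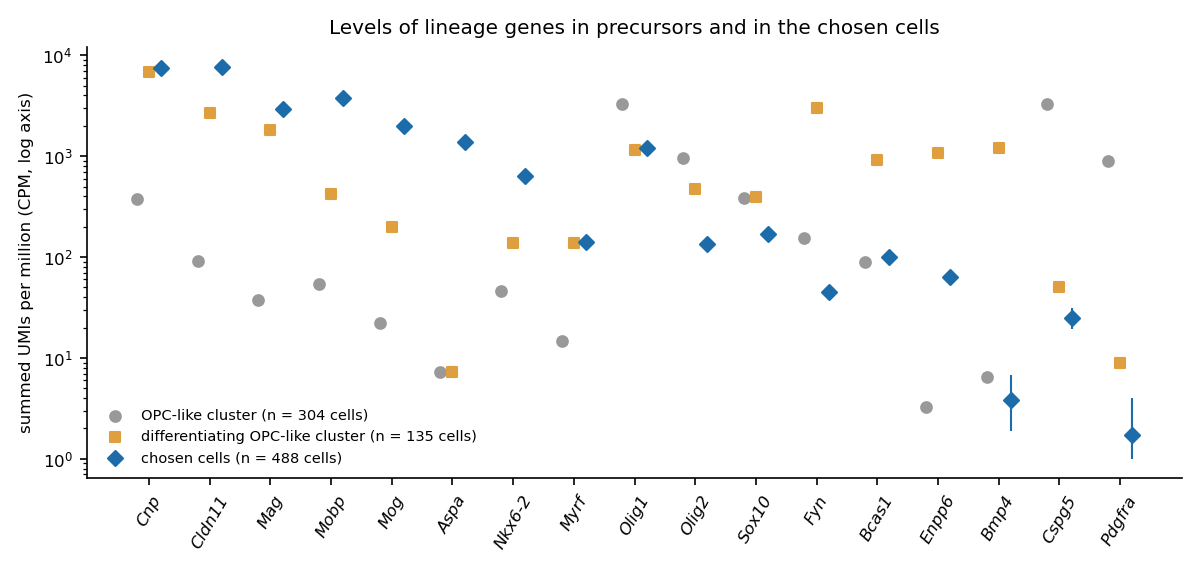
Levels of lineage genes as CPM on a log axis in the OPC-like cluster, the diffOPC-like cluster and the chosen cells, with bars for the exact Poisson interval of the chosen cells (values under 1 drawn at 1). Mog is at 2006 CPM in the chosen cells, while Bmp4 is at 3.79 CPM there and at 1205 in diffOPC-like cells.

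The chosen cells were then set against the 58 mature oligodendrocytes with at least 1 Klk6 UMI, which numbered 13, 11, 18 and 16 in barcode numbers 1 to 4. Il33 and Ptgds were higher in the chosen cells, while S100b, Anxa5, Mgst3 and 4 of 21 cholesterol synthesis genes were lower. S100b, a calcium-binding protein, was at 77.9, 85.4, 87.0 and 142 CPM in the chosen cells of numbers 1 to 4. It was at 1822, 1706, 1658 and 1827 CPM in the Klk6 group. The values of the 2 groups did not overlap, and the Klk6 group was 17.9-fold (15.6 to 20.5) higher.

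Of 6232 genes with at least 50 UMIs, 100 (1.60%) were higher in the chosen cells and 134 (2.15%) were lower. The Klk6 group was deeper, with a median of 8192.5 UMIs a cell, and had a lower share of mitochondrial UMIs, 3.63% against 5.11% in the chosen cells. With every cell thinned to 3000 UMIs, 122 genes were higher and 90 lower, so that higher calls then outnumbered lower ones. Without mitochondrial genes, the counts were 116 and 133.

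Il33 was at 648, 667, 519 and 584 CPM in the chosen cells of numbers 1 to 4. In the Klk6 group it was at 7.82, 154 and 6.57 CPM in numbers 1, 3 and 4, and at 0 in number 2, where 3 counts would be 31.4 CPM. Summed over numbers, the chosen cells were 12.6-fold (8.48 to 19.5) higher, a value that rests on number 3, since the log2 ratio went from 3.40 to 5.39 without it. Ptgds was at 32545, 32982, 30021 and 26059 CPM in the chosen cells and at 1642, 3025, 8229 and 2826 CPM in the Klk6 group. For both genes number 3 was the highest of the Klk6 group and still lay below every value of the chosen cells. Without number 3 the log2 ratio of Ptgds went from 2.88 to 3.61.

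Other genes higher in the chosen cells included Hebp1, a haem-binding protein, at 210 CPM against 43.8. Htra1, a secreted serine protease, was 4.20-fold (2.95 to 6.19) higher. The tetraspanins Cd63 and Cd9 were 3.50-fold (2.91 to 4.26) and 3.43-fold (2.98 to 3.96) higher. Tmod1, which caps actin filaments, was at 209 CPM against 57.2, and Jph4, a junctophilin, at 107 against 28.6. Nrtn, a neurotrophic ligand of the GDNF family, was at 30.7 CPM in the chosen cells and had no UMI in the Klk6 group, so it was at least 5.36-fold higher at 3 counts over the group. By the same reading Pcsk2, a prohormone convertase, was at least 5.90-fold higher and Epas1, a hypoxia-response factor, at least 4.40-fold higher. Gabrr2, a GABA receptor subunit, had 1 UMI in the Klk6 group, a ratio of 19.9 (3.49 to 792). Cd151, a tetraspanin, was at 38.2 CPM against 3.81, and Rtn2, a reticulon, at 55.1 against 7.63.

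Genes lower in the chosen cells than in the Klk6 group were spread over several functions. Mgst3, a microsomal glutathione transferase, was at 30 CPM against 370, and Anxa5, a phospholipid-binding annexin, at 51.0 against 467. Hopx, an atypical homeobox gene, had no UMI in the 488 chosen cells and was at 36.2 CPM in the Klk6 group, which was thus at least 35.1-fold higher. Nkx2-9, a homeobox factor, had 3 UMIs in the chosen cells and 57 in the Klk6 group, a ratio of 105 (34.2 to 525). Cdkn1c, a cyclin-dependent kinase inhibitor, was at 14.5 CPM against 208, and Uchl1, a deubiquitinase, at 26.2 against 200. Enpp6 was at 62.7 CPM against 383, so this gene of newly formed cells was also 6.11-fold (4.98 to 7.51) higher in the Klk6 group. Rab37, a small GTPase, was at 1.72 CPM against 85.8, Aven, an apoptosis inhibitor, at 6.54 against 91.5, and Chst2, a sulfotransferase, at 29.6 against 187.

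Cholesterol synthesis genes lay mostly below the Klk6 group. Of 21 measured genes, 20 had a log2 ratio below 0 and 4 were past 2-fold, with a median of -0.81 beside -0.03 over all genes tested. Hmgcs1, at the entry of the pathway, was at 342, 347, 417 and 447 CPM in the chosen cells and at 1438, 827, 933 and 1413 in the Klk6 group. Sqle, the squalene epoxidase, was 3.6-fold (2.98 to 4.36) higher in the Klk6 group. Idi1, an isomerase of the pathway, was at 123 CPM against 309. Insig1, which holds the pathway back, had a log2 ratio of 0.18 and was the 1 gene of the list above 0.

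Myelin protein genes differed little between these groups. Of 12, none was higher in the chosen cells past 2-fold and 1 was lower, Hapln2, a link protein of the node of Ranvier, at 525 CPM against 1252. Mog and Mobp each had a log2 ratio of -0.30, and Cnp one of -0.03. Apod, an apolipoprotein, was at 2492 CPM against 5858. Gjb1, a connexin of the myelin sheath, was 2.64-fold (2.36 to 2.95) lower in the chosen cells, Gsn, an actin-severing protein, 2.41-fold (2.28 to 2.54) lower, and Ldhb, a lactate dehydrogenase subunit, 3.77-fold (3.22 to 4.41) lower.

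A further comparison was with the 108 mature oligodendrocytes without Klk6 that had at least 2 UMIs of Ctps and Shisa8, namely 26, 24, 22 and 36 cells in numbers 1 to 4. Glul, Il33, Htra1 and Hapln2 were higher in the chosen cells, while Tmem141, Nfasc, Plat and Mag were lower. Glul, glutamine synthetase, was at 6623, 5950, 5802 and 6174 CPM in the chosen cells of numbers 1 to 4, and at 2256, 2382, 1610 and 1697 CPM in the Ctps or Shisa8 group. The groups did not overlap, and the ratio was 3.14 (3.0 to 3.28).

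Of 6640 genes, 60 (0.904%) were higher in the chosen cells and 90 (1.36%) were lower. This group too was deeper, with a median of 9170.5 UMIs a cell and 3.98% mitochondrial UMIs. When its cells were thinned to 3000 UMIs, 65 of the 108 (60.2%) had no more than 1 UMI of Ctps and Shisa8 left. The same was so of Klk6 in 14 of 58 cells of the Klk6 group (24.1% at 0). The line between these groups therefore depends on depth. With every cell thinned to 3000 UMIs, the genes lower in the chosen cells numbered 51.

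Il33 was 3.39-fold (2.91 to 3.96) higher in the chosen cells than in the Ctps or Shisa8 group and Htra1 was 4.53-fold (3.48 to 5.99) higher. Etv1, an ETS transcription factor, was at 444 CPM against 123, and Spock3, a secreted proteoglycan, at 234 against 55.7. Hapln2 was at 525 CPM against 161, so it lay between the Ctps or Shisa8 group and the Klk6 group. Serpinb1a, a protease inhibitor, was ordered the same way, at 105, 328 and 783 CPM. Anln, which stabilises septin filaments in myelin, was at 60.4, 180 and 587 CPM. Pex5l, a paralog of the peroxisomal import receptor, was at 677 CPM against 228, and Pcolce2, an enhancer of procollagen processing, at 115 against 26.4. Usp31, a deubiquitinase, was 4.19-fold (2.62 to 7.09) higher, and Dnah14, a dynein heavy chain, 7.60-fold (3.40 to 21.1).

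Tmem141, a small membrane protein, was at 66.4, 58.2, 62.0 and 50.6 CPM in the chosen cells and at 361, 360, 392 and 333 CPM in the Ctps or Shisa8 group, a ratio of 6.0 (5.00 to 7.23). Plat, tissue plasminogen activator, was at 76.8 CPM against 329. Nfasc, the neurofascin of the node and paranode, was at 160 CPM against 562, and Mag at 2953 against 6541. Sirt2 was at 1160 CPM against 2386. Each of these lay lower in the chosen cells of all 4 numbers. The tachykinin precursor Tac1 was at 6.54 CPM against 84.0, and Npb, a neuropeptide precursor, had 3 UMIs in the chosen cells against 49.

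Smaller transcripts in this direction included Man1a, an alpha-mannosidase of the Golgi, at 26.5 CPM against 141. Slc9a3r2, a scaffold of membrane transporters, was at 56.5 CPM against 248. Mgll, which breaks down the endocannabinoid 2-arachidonoylglycerol, was at 17.2 CPM against 89.7, and it was also low against the Klk6 group, at 87.7. Birc2, an inhibitor of apoptosis, was at 26.2 CPM against 118, Tnik, a kinase, at 15.2 against 86.8, Fam214a at 12.4 against 96.3, and Prom1, a membrane protein of cell protrusions, at 4.13 against 49.1. Of the membrane receptors, Lpar1, for lysophosphatidic acid, was at 466 CPM against 961 and Cntfr, for ciliary neurotrophic factor, at 64.4 against 157. Of 13 measured receptor genes, 2 were lower and 0 higher past 2-fold, beside 1.36% and 0.904% of all genes.

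Of 12 myelin protein genes, 9 were below 0 on the log2 scale, with a median of -0.44 beside -0.01 over all genes. The only ones past 2-fold were Mag, lower, and Hapln2, higher. Mog was 1.52-fold (1.46 to 1.59) and Cnp 1.46-fold (1.43 to 1.5) lower in the chosen cells. Genes given as late mature markers were ordered the other way, with 8 of 9 above 0 and a median of 0.77. The 5 vascular leptomeningeal markers summed to 63.4 CPM in the chosen cells and 243 in the Ctps or Shisa8 group, and their part in this comparison was not tested. Cholesterol genes were below 0 in 19 of 21, with a median of -0.32.

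**Figure D2:**
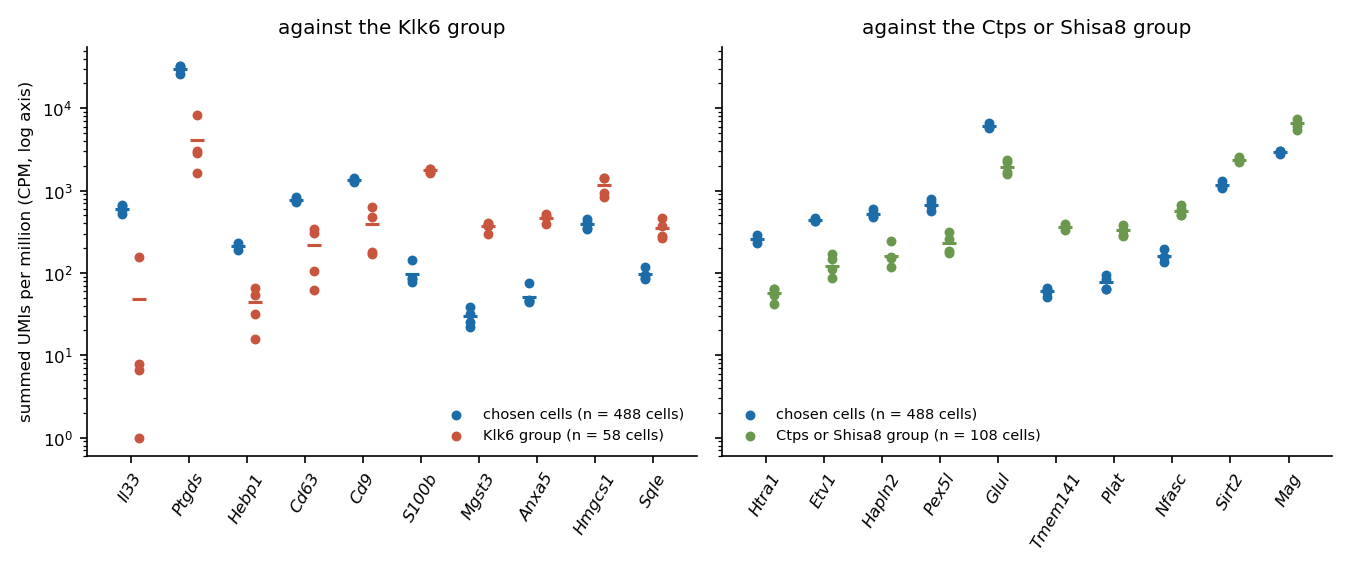
CPM on a log axis of 10 genes in the chosen cells and the Klk6 group (left) and 10 genes in the chosen cells and the Ctps or Shisa8 group (right). Points are the 4 barcode numbers, lines the value over all numbers, and values under 1 are drawn at 1. The points of the chosen cells and of the other group do not overlap for any of the genes drawn, and Il33 of the Klk6 group spans 0 to 154 CPM.

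The levels were stepped along the counts of the genes that drew the line. Among cells without Klk6, Glul was at 6525 CPM with no Ctps or Shisa8 UMI, 5181 with 1, 3426 with 2, 2876 with 3 and 857 with 4 or more. Il33 was at 618, 548, 382, 203 and 67.0 CPM over the same steps. Tmem141 went the other way, at 49, 86.5, 134, 244 and 515 CPM, and so did Nfasc, at 146, 196, 279, 418 and 759. Mag was at 2900 to 4083 CPM up to 3 UMIs and at 9153 in the 44 cells with 4 or more. Median depth changed along the same steps, from 5595 to 12116 UMIs a cell. Chosen cells with 1 UMI therefore lay towards the Ctps or Shisa8 group for each of these 5 genes. Whether single cells are intermediate or cells of separate kinds are mixed by missed UMIs was not tested.

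Klk6 gave a similar series. S100b was at 98.2 CPM in the chosen cells, at 428 in the 26 cells with 1 or 2 Klk6 UMIs, at 1608 in the 13 cells with 3 to 10, and at 2948 in the 19 cells with 11 or more. Ptgds was at 30266, 10762, 575 and 250 CPM. Anxa5 was at 51.0, 68.8, 225 and 923 CPM, and Mgst3 at 30, 47.6, 288 and 682. Opalin, a membrane glycoprotein of the sheath and 1 of the 6 genes of the rule, was at 1726, 1185, 108 and 13.4 CPM. Il33 had no UMI in the cells with 3 to 10, where 3 counts would be 27.0 CPM. The summed levels of these genes in the cells with 1 or 2 Klk6 UMIs lay between those of the chosen cells and of the rest of the Klk6 group. Median depth rose along this series too, at 5794, 6582.5, 8544 and 11513 UMIs a cell. The chosen cells were limited in Ctps and Shisa8, while the steps with Klk6 were not.

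**Figure D3:**
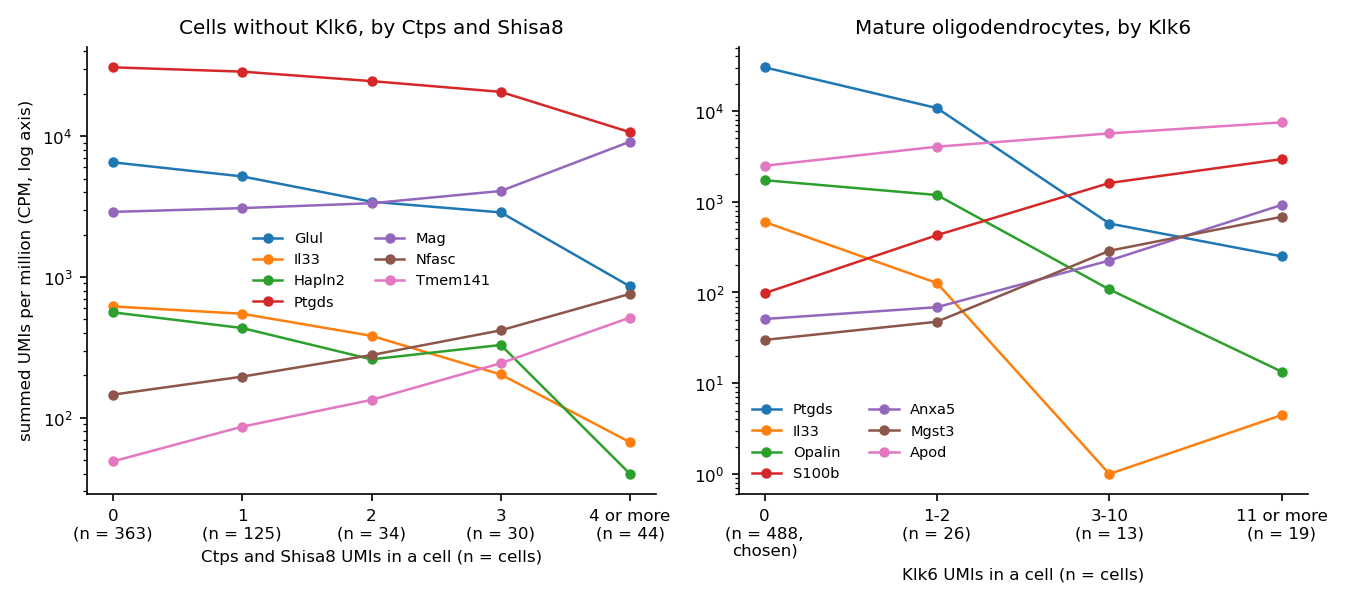
CPM on a log axis by the number of Ctps and Shisa8 UMIs in cells without Klk6 (left) and by the number of Klk6 UMIs in mature oligodendrocytes (right), with the number of cells in each bin (values under 1 drawn at 1). Glul goes from 6525 to 857 CPM on the left, and S100b from 98.2 to 2948 CPM on the right.

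Among the chosen cells, the genes that varied most were Malat1, Ptgds and Actb. For this, 486 cells were thinned to 3000 UMIs each and the other 2 were too shallow. Of 1493 genes with a mean of at least 0.3 UMI, 32 (2.14%) had a variance of 2 or more times the mean, where counting error alone gives 1. The median gene had 1.03. Most myelin genes were even, with Mog at 1.43, Mag at 1.39 and Cnp at 1.75, and the variance was 20.5 times the mean for Ptgds. Of the 7 measured late mature genes, 5 passed 2.

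Ptgds had a median of 92.0 UMIs of 3000, with 1.00 in the lowest cell and 306 in the highest. The 162 cells with the most Ptgds had a mean of 140 Ptgds and 5.56 Mog UMIs, and the 162 with the least had 48.1 and 6.88. The correlation of Ptgds with Selenop, a selenium carrier, was -0.38 over the 486 cells and between -0.33 and -0.43 within the 4 numbers. Cells rich in Ptgds had more Il33 (a mean of 2.47 UMIs against 1.38) and Apoe (12.3 against 7.54), and less Gsn (3.14 against 5.66), Selenop (1.69 against 4.15) and Apod (6.48 against 9.33). Selenop correlated with Fth1, the ferritin heavy chain, at 0.39 and with Pmp22, a myelin protein of peripheral nerve, at 0.38. All values are shares of a fixed total, so an abundant gene lowers the others.

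Actb, cytoplasmic actin, followed another set of genes. It had a median of 11 UMIs of 3000, a 90th percentile of 38.5 and a highest value of 74.0. Its correlation was 0.68 with Ttyh2 (a tweety-family membrane protein), 0.59 with Ppp1r16b (a phosphatase subunit), 0.58 with Clasp2 (a microtubule plus-end protein) and 0.54 with Slc39a1 (a zinc transporter). It was 0.50 with Dpysl2, a tubulin-binding protein, and 0.42 with Insig1. The 9 genes of this set, which also holds Nfia, Gnb1 and Cbx3, were chosen after their values were seen. Their sum correlated with Actb at 0.76.

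The 162 cells with the most Actb had a mean of 3.64 Ttyh2 and 4.43 Ppp1r16b UMIs, against 0.469 and 1.48 in the 162 cells with the least. Ptgds was at 86.3 and 101 UMIs and Mal at 12.8 and 14.3 in the same cells, and median depth was 5801 and 6024 UMIs. The cells with the most Actb came from all numbers, with 42, 34, 45 and 41 cells. The correlation of Actb and Ttyh2 was 0.78, 0.49, 0.76 and 0.66 within numbers 1 to 4. It was 0.84 in the 58 cells of the Klk6 group, 0.73 in the 108 of the Ctps or Shisa8 group, and 0.51 in 134 diffOPC-like cells, so the pairing was not limited to the chosen cells.

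**Figure D4:**
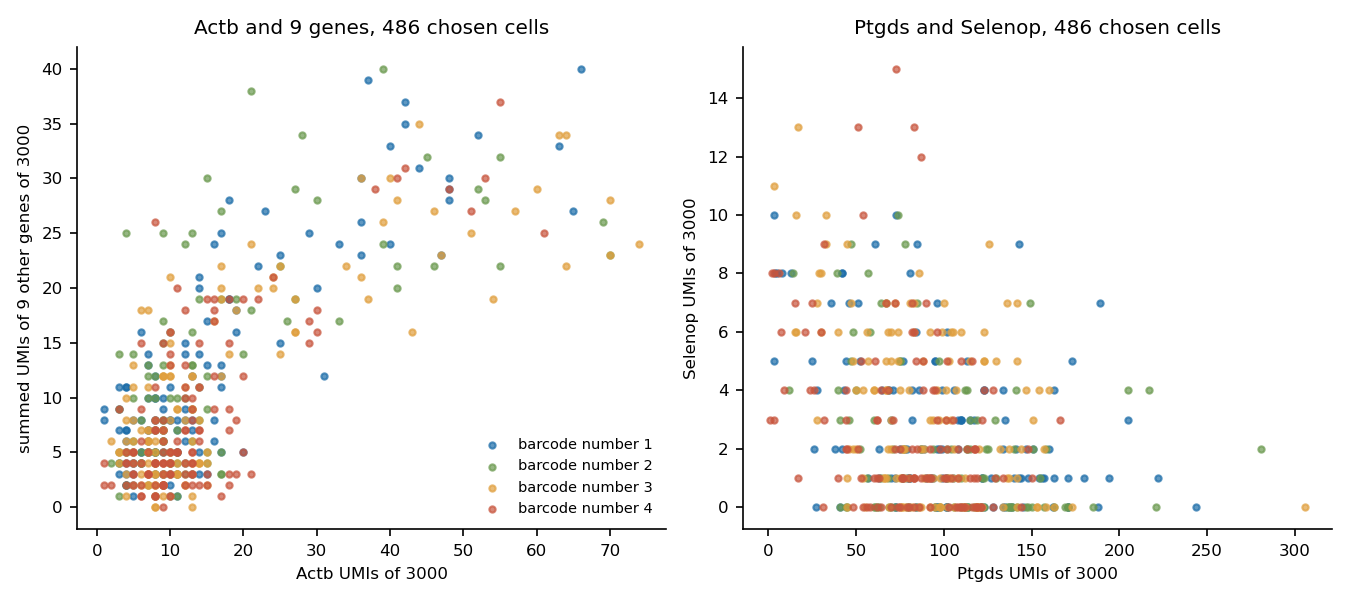
Each of 486 chosen cells thinned to 3000 UMIs, coloured by barcode number, with Actb against the sum of 9 other genes (left) and Ptgds against Selenop (right), all axes in UMIs. The correlation is 0.76 on the left and -0.38 on the right, and cells of all 4 numbers lie along both.

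Some of the spread came from few cells that carried transcripts of other cell types. Nnat and 6330403K07Rik, both abundant in tanycytes, had variances of 5.06 and 7.61 times the mean. In 5 cells they summed to at least 15 UMIs, and 4 of these 5 were called doublets. Without these 5 cells the variances were 1.33 and 1.09 times the mean, and the correlation of the pair went from 0.76 to 0.09. Acta2 had 153 UMIs, of which 69 and 67 were in the 2 cells of the mural-like cluster. Without cells outside the mature clusters, Acta2 had a log2 ratio of 0.21 to the Klk6 group in place of 2.18. It was 0.12 in place of 2.09 to the Ctps or Shisa8 group.

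Marker lists of other types summed to at most 185 CPM over the chosen cells as a whole. Only the microglial list was set against its own cell type. The 5 microglial markers summed to 136 CPM against 41744 in microglia-like cells. The 5 neuronal markers summed to 185 CPM, the 5 astrocyte markers to 174, the 5 vascular leptomeningeal markers to 63.4 and the 5 tanycyte markers to 53.7. In microglia-like cells these lists were at 216, 211, 62.6 and 113 CPM. The neuronal list had 120 UMIs in 1 chosen cell and was at 126 CPM without cells called doublets or outside the mature clusters. The mural, ependymocyte and pars tuberalis lists were at 63.7, 61.7 and 61.3 CPM in the chosen cells. The defining markers were at 0 for 1 gene of the mural list and for none of the other lists. Between 0 and 5 chosen cells had 10 or more UMIs of any 1 of these lists.

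The barcode numbers differed in heat shock and stress genes. Over the chosen cells, 3660 genes had at least 100 UMIs and 51 of them (1.39%) differed 2-fold or more between the highest and the lowest number. Hspa1a, the stress-inducible HSP70, was at 10.2, 5.45, 262 and 182 CPM in numbers 1 to 4. Dnajb1, its HSP40 partner, was at 53.6, 43.6, 222 and 170 CPM. Numbers 3 and 4 were high and numbers 1 and 2 low for both genes. Hspa1a has a near-identical neighbour, Hspa1b, which had 3 UMIs, so reads of the pair may not have been told apart.

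Of 16 measured heat shock genes, 5 passed 2-fold, the other 3 being Hsph1, Hspa4l and Ahsa2. Other abundant chaperones moved less, with Hspa8 at 1373, 1394, 2131 and 2209 CPM and Hsp90aa1 at 1243, 1323, 1992 and 1961. Cryab, a small heat shock protein abundant in oligodendrocytes, was at 3364, 3335, 4476 and 4228 CPM. Of 17 listed genes of the glucocorticoid response, 9 had enough UMIs to be measured. In 8 of these, numbers 3 and 4 both lay below numbers 1 and 2, and in 1 both lay above. Over all genes these orders held for 22.1% and 19.2%. Sgk1, a kinase induced by glucocorticoids, was at 1934, 1977, 845 and 807 CPM. Ddit4, an inhibitor of mTORC1, was at 302, 302, 96.6 and 122 CPM. Nfkbia, an inhibitor of NF-kB, was at 172, 189, 78.7 and 90.3 CPM, and Cdkn1a, a cell cycle inhibitor, at 129, 158, 73.9 and 62.9. These made 4 of 9 measured glucocorticoid response genes past 2-fold.

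The same order was seen in the other oligodendrocytes. Hspa1a was at 19.2, 36.0, 268 and 394 CPM in the Ctps or Shisa8 group, and Sgk1 at 944, 1013, 318 and 303. In the Klk6 group Sgk1 was at 1102, 1214, 396 and 342 CPM. In 4883 cells outside the lineage, Hspa1a was at 22.3, 15.4, 58.9 and 52.0 CPM and Sgk1 at 58.4, 73.2, 30.5 and 38.8. Myelin genes did not follow this order past 2-fold in any of 12 cases, with Mog at 2014, 1881, 2008 and 2088 CPM. Without cells called doublets or outside the mature clusters, Hspa1a was at 8.12, 3.91, 249 and 185 CPM.

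The other genes with the largest ratio between numbers differed in where their UMIs lay. Of the 148 UMIs of Scg2, a granin, 86 were in 1 cell of number 1 that was called a doublet. Of the 136 of Dcn, a matrix proteoglycan of leptomeningeal cells, 70 were in 1 cell of number 2. Crip1 had 58 of its 174 UMIs in 1 mural-like cell. Npy and Avp, neuropeptides of hypothalamic neurons, had at most 4 and 3 UMIs in a cell, and lay at 52.3, 30.9, 119 and 72.5 CPM and at 25.5, 18.2, 25 and 79.4 CPM. Over all chosen cells they were at 72.7 and 37.5 CPM, beside 78.1 and 132 CPM in microglia-like cells, which should lack both. Median depth was 5794 UMIs in the chosen cells and 3086.5 in microglia-like cells, so CPM is not a count per cell. Where the Npy and Avp UMIs came from was not tested. The 8 neuropeptide genes summed to 119, 96.3, 258 and 264 CPM in numbers 1 to 4, and their part in the differences between numbers was not tested. Epha4, an ephrin receptor, was at 11.5, 52.7, 42.9 and 35.6 CPM, and Slc24a5, a cation exchanger, at 39.6, 69.1, 26.2 and 19.2 CPM.

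The stretch of 250 bases before the start is shown for Hspa1a, Hsph1 and Dnajb1 of the 5 heat shock genes past 2-fold because heat shock factor binds inverted repeats of GAA there. The RefSeq starts farthest upstream in GRCm38.p6 were used, and 15 of the 19 listed genes were in the table. The letters searched were GAANNTTC and TTCNNGAA, each its own reverse complement, and matches are in capitals. Hspa1a lies on the minus strand at chr17:34972157-34972406, Hsph1 on the minus strand at chr5:149636337-149636586 and Dnajb1 on the plus strand at chr8:83607925-83608174.
Hspa1a: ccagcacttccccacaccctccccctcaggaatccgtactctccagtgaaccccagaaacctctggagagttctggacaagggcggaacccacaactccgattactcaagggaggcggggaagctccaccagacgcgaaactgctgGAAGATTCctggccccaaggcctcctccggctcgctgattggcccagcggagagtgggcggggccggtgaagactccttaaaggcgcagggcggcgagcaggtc
Hsph1: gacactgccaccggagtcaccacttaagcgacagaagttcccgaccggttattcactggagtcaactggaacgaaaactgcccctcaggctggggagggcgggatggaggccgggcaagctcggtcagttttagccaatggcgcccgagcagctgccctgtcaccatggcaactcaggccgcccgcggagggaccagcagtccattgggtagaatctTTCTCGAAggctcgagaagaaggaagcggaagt
Dnajb1: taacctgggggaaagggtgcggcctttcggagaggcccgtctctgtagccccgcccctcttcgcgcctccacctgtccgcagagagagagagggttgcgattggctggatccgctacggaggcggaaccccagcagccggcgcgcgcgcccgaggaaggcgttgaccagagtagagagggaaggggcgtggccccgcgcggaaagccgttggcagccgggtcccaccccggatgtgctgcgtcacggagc
Hspa1a held 1 match starting 104 bases before the start and Hsph1 1 match at 33 bases, while Dnajb1 held none in this window, and neither did Hspa4l or Ahsa2. Thus 2 of the 5 genes past 2-fold held a match. Of the 15 listed genes, 6 held a match, beside 13.0% of 27025 genes. These 6 include Hspa1b, whose stretch equals that of Hspa1a at 247 of 250 positions, and Hspb1, and these 2 genes had 3 and 7 UMIs in the chosen cells. A match is a run of letters and was not tested as a binding site.

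**Figure D5:**
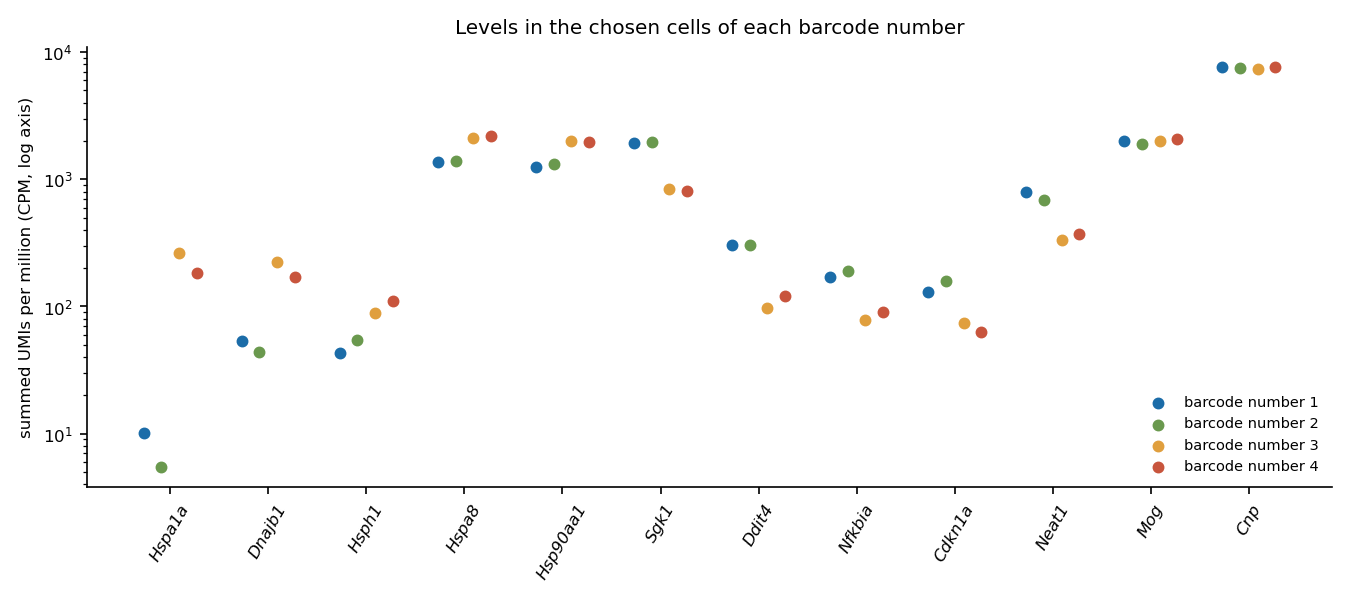
CPM on a log axis of 12 genes in the chosen cells of barcode numbers 1 to 4, which no label ties to a feeding state. Hspa1a spans 5.45 to 262 CPM and is high in numbers 3 and 4, Sgk1 spans 807 to 1977 CPM and is high in numbers 1 and 2, and Mog spans 1881 to 2088 CPM.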

How the data were processed

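The deposited values are raw UMI counts per gene and cell, which the authors made with Cell Ranger 2.0 on GRCm38 (mm10) from 10x 3′ libraries; no normalization was applied. Symbols came from GENCODE vM21 (27645 of 27998 genes). The 32 sample records are lanes and index parts of the 4 libraries. No cell was removed. Depth of the chosen cells was 2487 to 16682 UMIs.

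UMIs were summed over cells and scaled to CPM. Ratios were log2(CPM + 10) for genes with at least 50 UMIs over both groups; exact Poisson, Clopper-Pearson and conditional ratio intervals (scipy) are at 95%, and 0 is read as 3 counts. UMIs of 1 cell are not independent. For the diffOPC-like and OPC-like groups, cells with at least 20 marker UMIs were left out. Clusters (scanpy 1.11.5: 2000 variable genes, 30 components, 15 neighbours, Leiden resolution 1) were named from fixed marker lists, Scrublet ran per barcode number, and doublets were kept. Spread used cells thinned to 3000 UMIs. The code was tested on simulated data.

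The named genes are those of the lists, the rule's 6 genes, the 12 highest and 12 lowest ratios with 1 direction in all barcode numbers, the 15 largest variances over the mean, the 12 largest ratios between numbers and the 15 highest levels. The members and lists were chosen with earlier results of these data known. Some genes are not reported here. Alternatives were each barcode number left out, doublets left out, 10 or 40 marker UMIs, Ctps and Shisa8 at 0, thinning, 1 CPM added, a 20-UMI minimum, cells weighed equally, mitochondrial genes left out, thinning to 2000 UMIs and a 300-UMI minimum. Added after seeing the data were at least 3 Klk6 UMIs and leaving out chosen cells outside the mature clusters.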

Additional observations from a re-analysis of the deposited data

How the results depend on the processing

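No paired analysis was possible because the cell barcodes carry no replicate number of the labels and no feeding state. Of 696 recomputed log2 ratios of the named genes, 696 kept their sign and 694 stayed past 2-fold. The other 2 were Acta2 without the 4 chosen cells outside the mature clusters. These genes were picked for the largest ratios with 1 direction in all barcode numbers, and Klk6, Opalin, Ctps and Shisa8 among them chose the cells. Their agreement was therefore largely set in advance and is a description. The share of chosen cells was 5.95% at 40 marker UMIs and 6.07% with Ctps and Shisa8 at 0. With 1 CPM added in place of 10, 231 genes were higher and 221 lower against the Klk6 group, and 137 and 161 against the Ctps or Shisa8 group. Thinning to 3000 UMIs left 51 genes lower than in the Ctps or Shisa8 group, and weighing cells equally left 38 higher. With at least 3 Klk6 UMIs, 228 genes were higher than in that group; the cause was not tested. Genes past 2-fold between barcode numbers were 19 to 26 with 1 number left out, where fewer numbers are compared, and 9 at 300 UMIs. Without barcode number 3, the log2 ratio to the Klk6 group was 5.39 for Il33 in place of 3.40 and 3.61 for Ptgds in place of 2.88. Depth limits calls on genes with few UMIs in the 58 cells of the Klk6 group.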

Other observations

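Levels of receptor and nutrient-sensing genes spanned a wide range in the chosen cells. Thra, a thyroid hormone receptor, was at 328 CPM and its paralog Thrb at 2.41. Lpar1 was at 466 CPM, Gprc5b, an orphan receptor, at 412, Fgfr2 at 142 and S1pr5, a sphingosine phosphate receptor of mature oligodendrocytes, at 159. Of the metabolic hormone receptors, Insr was at 13.8 CPM, Igf1r at 26.9, Lepr at 2.07 and Ghr at 1.72. The adiponectin receptors Adipor1 and Adipor2 were at 168 and 136 CPM.

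Of the mTORC1 genes, Rheb, the activating GTPase, was at 120 CPM, and the lysosomal anchor genes Lamtor1 and Lamtor2 were at 167 and 120. The kinase Mtor itself was at 8.96 CPM and Rptor at 4.82. Rraga, a nutrient-sensing GTPase, was at 121, 120, 64.4 and 131 CPM in numbers 1 to 4.

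Slc2a1, the glucose transporter, was at 83.0, 87.2, 93.0 and 93.1 CPM, and Slc16a1, which exports lactate to axons, at 66.4, 45.4, 46.5 and 31.5. Car2, carbonic anhydrase, was at 4418, 3606, 4564 and 4519 CPM. Transferrin (Trf) was at 6740 CPM over all chosen cells and its receptor Tfrc at 10.7.

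The 4 barcode numbers fell into pairs by their heat shock genes, chosen after the values were seen. In 15 of 16 measured heat shock genes, numbers 3 and 4 both lay above numbers 1 and 2, and in 0 both lay below. Over all 3660 genes, 704 (19.2%) had the first order and 809 (22.1%) the second. Of 9 glucocorticoid response genes, 8 had the second order and 1 the first. Neat1, a nuclear RNA, was at 795, 692, 333 and 372 CPM and Hspa4, the heat shock gene outside the pattern, at 89.3, 63.6, 58.4 and 75.3. Without cells called doublets or outside the mature clusters, Dnajb4 was at 56.9, 82.1, 83.0 and 79.2 CPM and left the first order. In the same cells Hspd1 was at 112, 149, 153 and 154 CPM, so numbers 2, 3 and 4 were close. What each number stands for, and so what the pairs are, is not given in the sources used here.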
